A study of Homo sapiens with 4 samples.

Results

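The genes described here are 4 genes of Wnt signalling (WNT5A, LRP6, DVL3 and GSK3B) and 3 genes of TGF-beta signalling (TGFBR2, SMAD7 and ZEB2). They were chosen by symbol from the 6763 genes of a deposited table of m6A peaks, and all 7 were found there, with 12 of its 9466 peaks. The table compares BEAS-2B cells (human bronchial epithelium, immortalised) given a METTL16-overexpressing plasmid with the same cells given an empty control plasmid. Each of the 2 arms had 1 input library of fragmented RNA without ribosomal RNA and 1 library of the fragments bound by an m6A antibody, so there were 4 libraries in 4 groups of 1 and no replicates. The overexpression could not be checked, since 0 lines of the table are for METTL16, and the depth of the libraries is unknown.

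N6-methyladenosine (m6A) is a methyl mark on adenosines of messenger RNA that bears on splicing, stability and translation. METTL16 is a methyltransferase that marks the U6 small nuclear RNA and hairpins of the MAT2A transcript, whereas most m6A of messenger RNA is placed by a different enzyme complex. In canonical Wnt signalling, a Wnt ligand joins Frizzled and LRP5 or LRP6 at the cell surface, Dishevelled proteins relay the signal, and the complex in which GSK3 marks beta-catenin for destruction is held back. In TGF-beta signalling, the ligand brings the type II and type I receptors together, receptor-activated SMAD proteins carry the signal to the nucleus, inhibitory SMADs such as SMAD7 turn it down, and repressors such as ZEB2 act on epithelial genes. In bronchial epithelium both pathways are known for roles in repair and in the shift of epithelial cells towards a mesenchymal state.

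The table holds only genes with a listed peak, so the cell type label could be checked only in part. Of 9 epithelial markers, KRT8 and KRT18 were listed, at 46.1 to 59.6 FPKM over both inputs (FPKM is fragments per kilobase of transcript, scaled to library size). EPCAM, CDH1 and the other 5 had no line. Of 5 fibroblast or mesenchymal markers 3 were listed, VIM with 510.0 FPKM in the overexpression input and 499.0 in the control input, COL1A1 and PDGFRB between 1.51 and 2.33. Of 3 endothelial markers 0 were listed, and of 3 leukocyte markers only CD68, with 57.7 and 41.6 FPKM. The part of these levels in the results below was not tested.

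Most m6A peaks of the 7 genes were lower in the overexpression arm, by 2-fold or more in 8 of 12, while 2 of 12 were higher by 2-fold or more. A peak at 2-fold or more with the authors' p-value below 0.05 is called differential here, which is also how the authors marked their peaks. Over all listed peaks 43.7% were differential, 16.5% higher and 27.2% lower. Among the 4525 peaks on genes with mean input levels in the same range as the 7 genes, 4.52 to 39.5 FPKM, 29.1% were differential. Among the 699 peaks labelled intronic, as 2 Wnt and 2 TGF-beta peaks of the 7 genes were, 85.7% were differential. The 7 genes were chosen with results of this table known, so the difference between 10 of 12 and those shares is a description and no test. Every peak in the table has a p-value below 0.05, and these p-values compare single libraries, not replicated conditions.

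In the Wnt genes, 7 of 8 listed peaks were differential, 6 lower and 1 higher. GSK3B, LRP6 and DVL3 held them, and WNT5A held the peak under 2-fold. Over all listed peaks 43.7% were differential. The median log2 fold change of the 8 peaks was -2.40, against -0.38 over all listed peaks. After correction over all peaks by the authors, 0 of the 7 had an adjusted p-value below 0.05 and 4 of the 7 had none given. Over the table, 7.84% of peaks passed 2-fold with such an adjusted p, and 21.7% of differential peaks had no adjusted p given. The 4 Wnt peaks without one had the lowest values of all 12, from -3.48 to -4.57 per the authors' deposited table.

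WNT5A, a secreted ligand known mainly for signalling that does not run through beta-catenin, had 1 listed peak, labelled stop codon (chromosome 3, 55468589 to 55489901, minus strand). Its log2 fold change was -0.26 per the authors' deposited table, which is 1.20-fold lower (p = 0.00726, adjusted p = 0.0882). That value lies close to the median of -0.29 for the 1372 peaks labelled stop codon, and 54.8% of them lay below it. Centred on the median of all listed peaks, the value turned to 0.12, so its direction depends on that centring. How the libraries were scaled is unknown. The peak runs over 21313 genomic bases with introns included, or 53.9% of the gene span in RefSeq. Its length in the spliced transcript was not analysed here.

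LRP6, the co-receptor that Wnt ligands bring together with Frizzled, had 3 peaks labelled 3'UTR, of which 39.5% were differential over the table, within 4401 bases at the 3' end of the gene, and they did not share 1 direction. The peak nearest the end (chromosome 12, 12116049 to 12116874, minus strand) reaches to 24 bases from the RefSeq 3' end of the gene and had a log2 fold change of -1.24 per the authors' deposited table (p = 0.0107, adjusted p = 0.111). The middle peak (12117474 to 12117574) had -3.48 per the authors' deposited table, which is 11.2-fold lower (p = 0.00865, no adjusted p). The peak farthest upstream (12120324 to 12120449) had 1.29 per the authors' deposited table, which is 2.45-fold higher (p = 0.0218, adjusted p = 0.164). The lower pair and the higher peak are 2749 bases apart. Centred on the median of all listed peaks, the peak nearest the end became -0.86 and no longer passed 2-fold. Of the 367 genes with 3 listed peaks, 62 (16.9%) had differential peaks in both directions, LRP6 among them.

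DVL3, a Dishevelled protein that relays the signal from the receptors, had 1 peak labelled exonic (chromosome 3, 184156991 to 184162628, plus strand). Its log2 fold change was -3.71 per the authors' deposited table, which is 13.1-fold lower (p = 0.0265, no adjusted p). Of the 1297 exonic peaks, 39.0% were differential and 1.77% lay below it. Of the 923 peaks on genes with a similar input level (the eighth of 10 equal groups), 0.542% did, and 26.4% of that group were differential. The peak covers 5638 genomic bases in the 5' part of the gene, from 8.85% to 39.8% of its span.

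GSK3B, the kinase that marks beta-catenin for destruction, had 3 peaks and all of them were lower. The peak labelled intronic at chromosome 3, 119997841 to 119997941 (minus strand) had a log2 fold change of -4.57 per the authors' deposited table, 23.7-fold lower and the lowest value among the 12 (p = 0.00388, no adjusted p). Its neighbour at 119997566 to 119997816, 24 bases away and also intronic, had -3.70 per the authors' deposited table (p = 0.0047, no adjusted p). The peak at 120000391 to 120001101, labelled stop codon, had -1.31 per the authors' deposited table (p = 0.042, adjusted p = 0.232).

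The 3 GSK3B peaks lie within 3536 bases, about 93.3 to 96.6 kb from the 5' start of a gene that spans 273.1 kb in RefSeq, and 176.2 to 179.1 kb from its 3' end. The authors assigned the stop codon peak to transcript ENST00000678608 and both intronic peaks to ENST00000264235. The stop codon label therefore belongs to a transcript other than that of the neighbouring intronic peaks, and does not place the peak at the 3' end of the gene. Of 699 intronic peaks in the table, 85.7% were differential (49.8% lower), and 4.01% and 6.58% lay below the 2 GSK3B values. Among stop codon peaks 12.2% were differential, and 5.25% lay below the GSK3B value, which became -0.93 when centred on the median of all listed peaks and so no longer passed 2-fold. Of the 367 genes with 3 listed peaks, 15 (4.09%) had all of them lower by 2-fold or more, as GSK3B did.

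**Figure D1:**
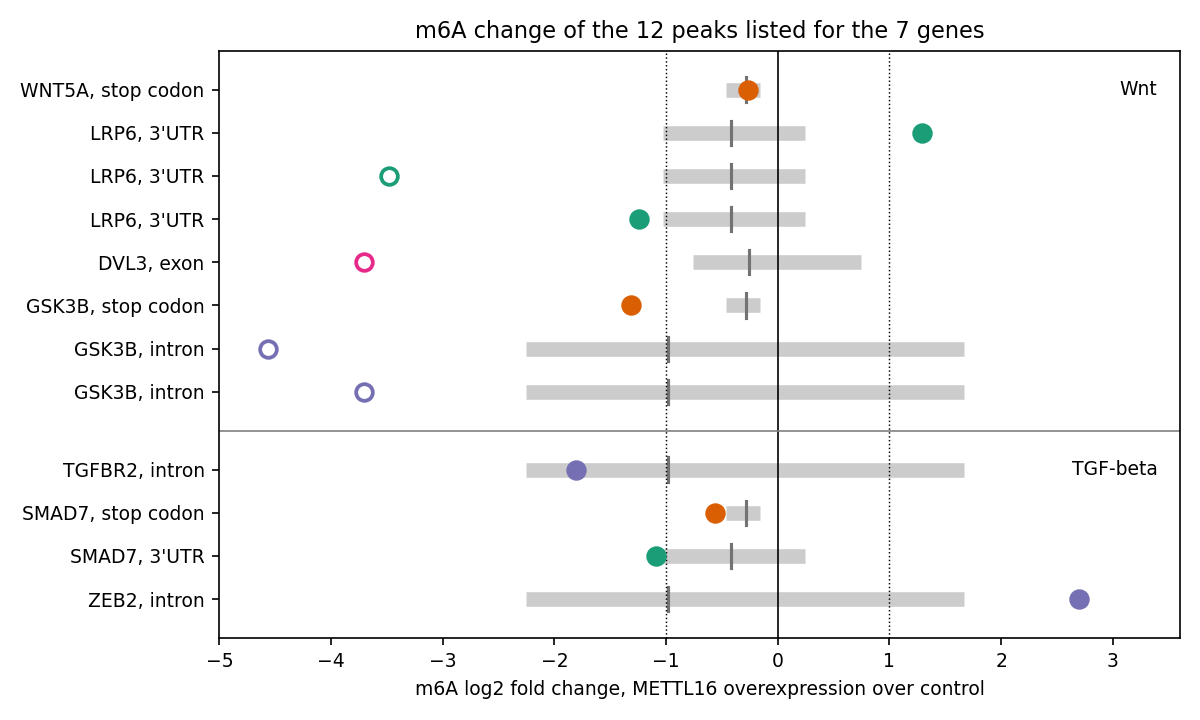
Points give the m6A log2 fold change (overexpression over control, x axis) of each of the 12 listed peaks, ordered 5' to 3' within a gene, with colour for the authors' region label and open points where no adjusted p was given. Grey bars span the middle 50 percent of all listed peaks with the same label, with the median as a line, and dotted lines mark 2-fold. The 3 GSK3B peaks lie on the lower side, LRP6 has peaks on both sides, and ZEB2 is the highest at 2.70.

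In the TGF-beta genes, 3 of 4 listed peaks were differential, 2 lower and 1 higher. Those of TGFBR2 and SMAD7 were lower and that of ZEB2 was higher. Over all listed peaks 43.7% were differential, and 85.7% of those labelled intronic, as the TGFBR2 and ZEB2 peaks were. The median log2 fold change of the 4 peaks was -0.83, against -0.38 over all listed peaks. Only the 2 SMAD7 peaks had an adjusted p-value below 0.05 among all 12, beside 2419 of the 9466 listed peaks.

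TGFBR2, the type II receptor that binds the ligand and activates the type I receptor, had 1 peak labelled intronic (chromosome 3, 30631386 to 30631986, plus strand). Its log2 fold change was -1.81 per the authors' deposited table, which is 3.50-fold lower (p = 0.005, adjusted p = 0.0703). This lay within the broad range of intronic peaks, of which 34.5% were lower still. Centred on the intronic median of -0.98, the value became -0.83 and no longer passed 2-fold. TGFBR2 had the highest input level of the 7 genes, and among the 923 peaks on genes in the top of 10 equal groups by input level only 9.64% were differential and 2.17% lay below the TGFBR2 value. The peak lies 25030 bases from the 5' start and 62156 bases from the 3' end of the gene.

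SMAD7, the inhibitory SMAD that blocks the receptors and is itself a target of the pathway, had 2 peaks and both were lower. The 3'UTR peak (chromosome 18, 48919852 to 48920627, minus strand) had a log2 fold change of -1.09 per the authors' deposited table, which is 2.13-fold lower. Its p of 6.04e-06 ranked 467 among all listed peaks and its adjusted p was 0.000563, the smallest of the 12. The peak labelled stop codon (48920977 to 48950669) had -0.56 per the authors' deposited table, 1.48-fold lower and under the 2-fold threshold (p = 4.94e-05, adjusted p = 0.00291). Only 349 bases separate the SMAD7 peaks, and the second covers 95.4% of the gene span with introns included. The 3'UTR peak passed 2-fold by little, and centring on the median of all listed peaks brought it to -0.71.

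ZEB2, a zinc finger repressor that turns down E-cadherin and other epithelial genes, had 1 peak, labelled intronic (chromosome 2, 144428512 to 144428687, minus strand). Its log2 fold change was 2.70 per the authors' deposited table, which is 6.48-fold higher and the highest of the 12 (p = 0.0119, adjusted p = 0.118). Of the 699 intronic peaks 88.8% lay below it, while 85.7% were differential and 35.9% were higher by 2-fold or more. Of the 923 peaks of any region on genes with a similar input level, 95.8% lay below it. The peak of 176 bases lies 91.4 kb from the 5' start of the gene and 44.4 kb from its 3' end.

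**Figure D2:**
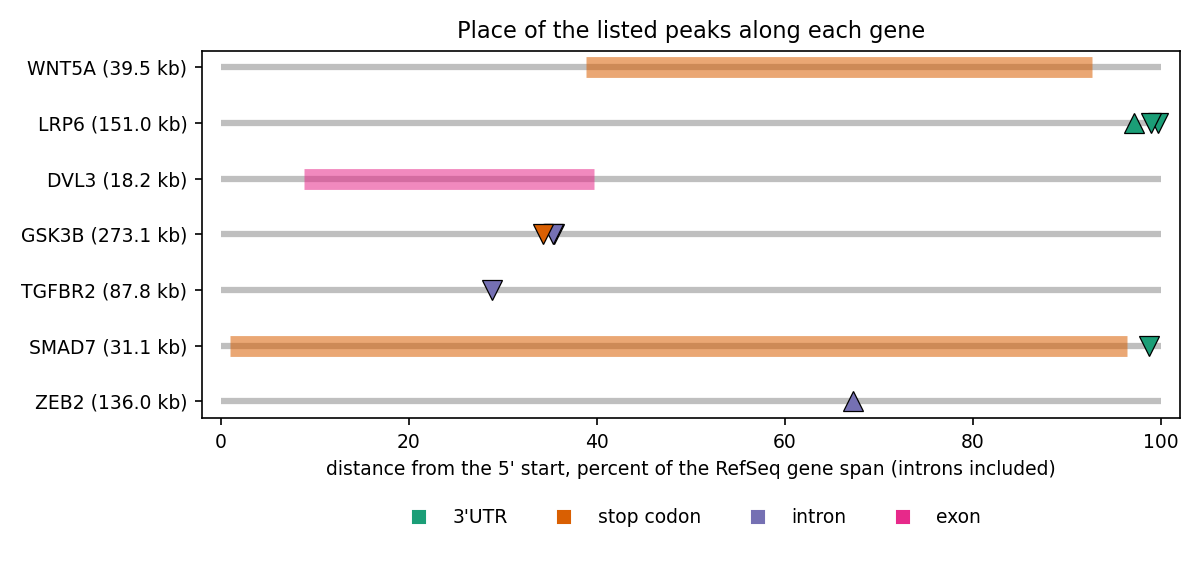
Listed peaks are drawn along each gene, with the x axis in percent of the RefSeq gene span from the 5' start, introns included. Bands are long peaks, and triangles are short peaks that point up where m6A was higher in the overexpression arm and down where it was lower. The 3 LRP6 peaks sit at 97.1 percent or beyond, the GSK3B peaks at 34.2 to 35.5 percent, and the SMAD7 stop codon peak spans most of its gene.

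The 12 peaks differed widely in length. WNT5A, DVL3 and SMAD7 each had a peak of over 5000 bases, and the other 9 were between 101 and 826 bases long. Peaks of 101 bases, the shortest in the table, numbered 458, and 82.3% of them were differential, against 27.1% of the peaks of over 5000 bases. The most negative values of LRP6 and GSK3B came from peaks of that shortest length. The number of reads behind a peak was not analysed here, and its part in these values was not tested. None of the 12 peaks overlapped another listed peak by 1 base or more, and 0 of them contained a RefSeq miRNA hairpin.

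**Figure D3:**
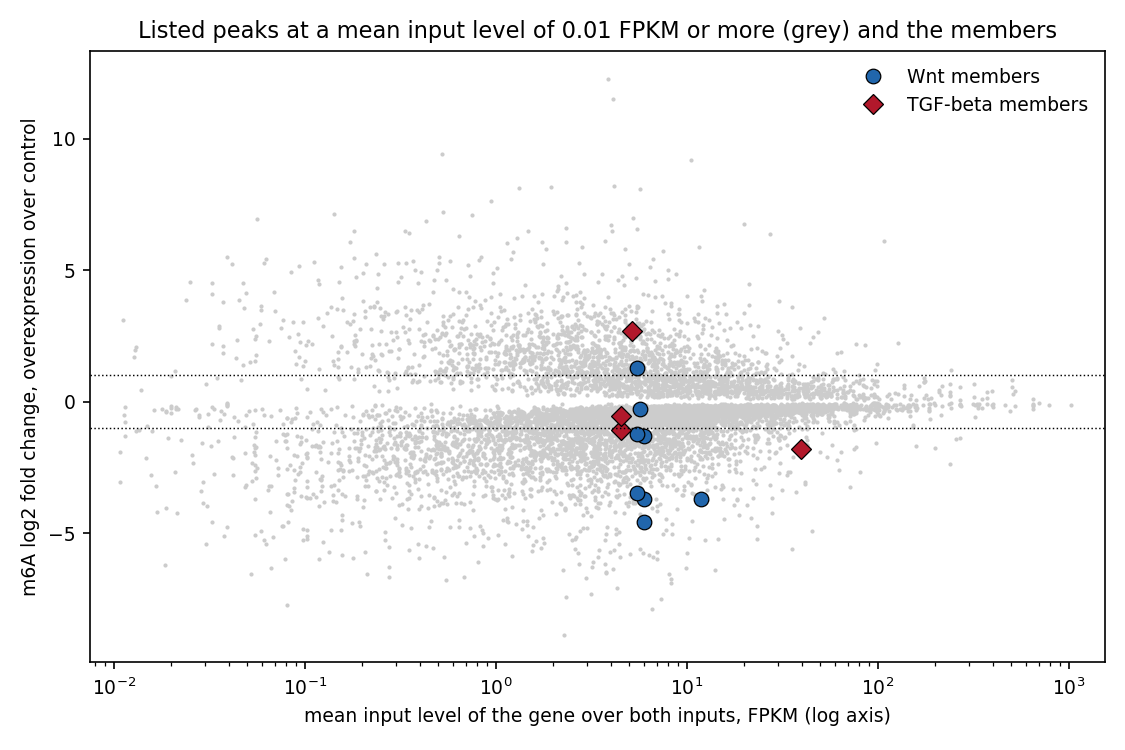
Grey points are the 9189 listed peaks on genes with a mean input level of 0.01 FPKM or more, with that level on a log x axis and the m6A log2 fold change on the y axis, and dotted lines mark 2-fold. Circles are Wnt and diamonds are TGF-beta peaks. Values spread less at the highest levels, and the TGFBR2 peak, at a mean of 39.5 FPKM, lies below most peaks of its level.

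Input transcript levels of the 7 genes were close between the arms, and 0 of them differed by 2-fold. Of 5467 genes that reached 1 FPKM in an input, 0.293% did so on the log2(FPKM + 1) scale, on which low genes appear to change less than they did. With 1 library per arm these differences have no replicate check. Fewer cells of a kind and less RNA per cell cannot be told apart in such bulk samples.

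Among the Wnt genes, 3 of 4 had slightly lower input levels in the overexpression arm, as did 3164 of all 5467 genes that reached 1 FPKM. WNT5A had 5.16 FPKM in the overexpression input and 6.17 in the control input. LRP6 had 5.23 and 5.75 FPKM in the same order, and GSK3B had 5.83 and 6.06. DVL3 was level, with 11.9 and 11.8 FPKM. The log2 changes, with 1 FPKM added to each level, were -0.22 for WNT5A, -0.12 for LRP6, -0.05 for GSK3B and 0.01 for DVL3, beside a median of -0.02 over all genes. The authors' expression p-values for these genes ran from 0.745 to 0.986, with a q-value of 1 for each per the authors' deposited table.

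Among the TGF-beta genes, TGFBR2 was the most abundant, with 36.9 FPKM in the overexpression input and 42.2 in the control input. SMAD7 had 5.13 and 3.91 FPKM, the largest relative difference of the 7 at 1.31-fold. ZEB2 had 5.29 and 5.09 FPKM. The log2 changes were -0.19 for TGFBR2, 0.32 for SMAD7 and 0.05 for ZEB2, and 95.8% of the 5467 genes changed by less than SMAD7 in either direction. The expression p of SMAD7 was 0.51 per the authors' deposited table. In the control input TGFBR2 stood highest, then DVL3, and the other 5 genes lay between 3.91 and 6.17 FPKM. That order was kept at the top in the overexpression input, where the same 5 genes lay between 5.13 and 5.83 FPKM, and without replicates no neighbours among the 5 can be told apart.

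SMAD7 combined lower m6A with the largest relative difference in input level. Its m6A log2 fold change was -1.09 at the 3'UTR peak and its input log2 ratio was 0.39 per the authors' deposited table. For DVL3 and GSK3B, whose m6A values were the most negative, the input log2 ratio was 0.01 and -0.06 per the authors' deposited table. Whether the m6A value was divided by the input level is not given in the sources used here, so the share of an input difference in an m6A value was not tested.

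**Figure D4:**
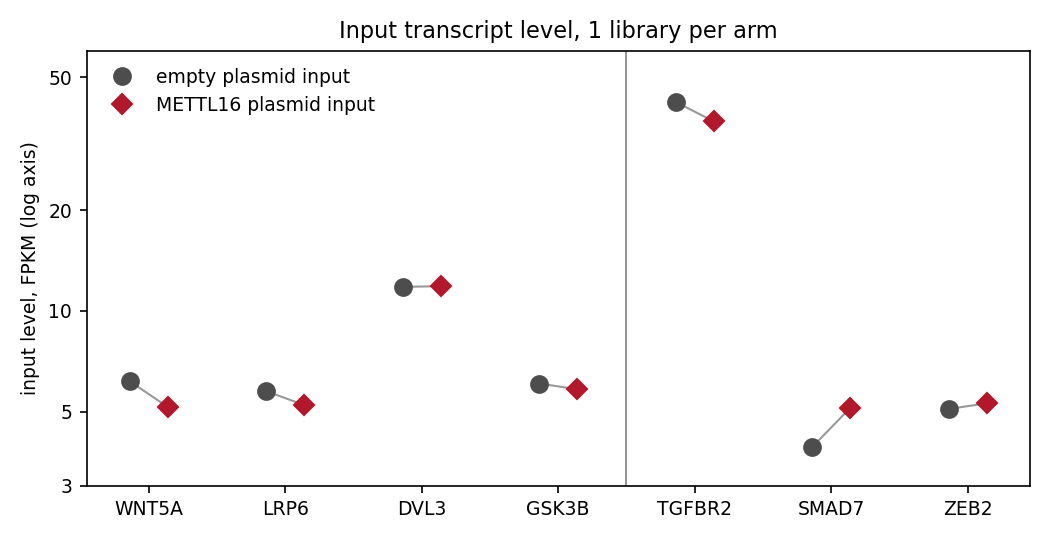
Input level in FPKM (log y axis) of each gene in the control input (circles) and the overexpression input (diamonds), 1 library each, with Wnt genes left and TGF-beta genes right of the line. TGFBR2 has 42.2 and 36.9 FPKM, DVL3 has 11.8 and 11.9, and the other 5 genes lie between 3.91 and 6.17.

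Beyond the 7 genes, more listed peaks of Wnt pathway genes were under 2-fold than past it. Of a list of 77 ligands, receptors, relay proteins, destruction complex members, nuclear partners, inhibitors and targets, 35 genes had a listed peak, with 54 peaks. Of these, 18 were differential, 4 higher and 14 lower, and the median log2 fold change was -0.45. Without the 4 members, 11 of 46 peaks (23.9%) were differential, 3 higher and 8 lower. Over all listed peaks the share was 43.7%, and at the members' input levels it was 29.1%. How the pathway stands against these shares depends on the list: of the genes that the table itself annotates to Wnt signalling, again without the members, 25 of 62 peaks (40.3%) were differential, 9 higher and 16 lower. Input levels of 31 genes at 1 FPKM or more were higher for 14 and lower for 17, with a median log2 change of -0.02, and 0 passed 2-fold. Over all 5467 genes at that level, 2303 were higher and 3164 lower.

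In the step of ligand secretion, PORCN, which attaches the lipid of Wnt proteins, had an intronic peak at a log2 fold change of 1.46 per the authors' deposited table, with 3.49 and 3.77 FPKM in the overexpression and control inputs. In the destruction complex, the scaffold gene AXIN1 had a 3'UTR peak at -1.54 per the authors' deposited table and 4.02 against 3.97 FPKM. The tankyrase gene TNKS, whose product leads to the degradation of axin, had an exonic peak at 1.76 per the authors' deposited table, though its stop codon and 3'UTR peaks were at -0.38 and -0.86. In the nucleus, TLE3, a co-repressor of TCF factors, had an intronic peak at -1.92 and a 3'UTR peak at -1.29 per the authors' deposited table. The largest input differences on the list at 1 FPKM or more were small. TLE4 had 12.4 against 10.7 FPKM, the receptor gene FZD4 6.67 against 5.72 and the target CCND1 122.3 against 107.1, while besides WNT5A, LZTS2 had 5.02 against 5.96 and PYGO2, a partner of beta-catenin in the nucleus, 7.51 against 8.70.

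Of a list of 74 TGF-beta pathway genes, 36 had a listed peak, with 51 peaks, of which 17 were differential, 5 higher and 12 lower, at a median of -0.29. Without the 3 members, 14 of 47 peaks (29.8%) were differential, 4 higher and 10 lower, against 43.7% over all listed peaks and 29.1% at the members' input levels. By the table's own annotation to TGF-beta signalling, without the members, 26 of 53 peaks (49.1%) were differential, 6 higher and 20 lower, so the share again depends on the list. That annotation covers TGFBR2 and SMAD7 but not ZEB2. Input levels of the 36 genes were higher for 19 and lower for 17, with a median log2 change of 0.01, and 0 passed 2-fold. Of all 5467 genes, 2303 were higher and 3164 lower.

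Among ligands, INHBA, the activin subunit gene, had a 3'UTR peak of 101 bases at -4.76 per the authors' deposited table, at a low input of 1.36 against 1.76 FPKM. Among receptors, the type I receptor gene ACVR1 had 5'UTR peaks at 3.30 and 2.53 but a 3'UTR peak at -1.16 per the authors' deposited table. Its stop codon peak was at -0.20 per the authors' deposited table, with 4.84 against 4.70 FPKM in the inputs. BMPR1A, a type I receptor for bone morphogenetic proteins, had a 3'UTR peak at -2.08 and a stop codon peak at -0.20 per the authors' deposited table. LTBP2, of the family of latent TGF-beta binding proteins, had a 3'UTR peak at 1.59 per the authors' deposited table.

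Among the signal carriers, SMAD2 had 3'UTR peaks at -2.36, -1.45 and -0.29 per the authors' deposited table. SMAD3 had a 5'UTR peak at 1.12, which spans 39284 bases, and a stop codon peak at -0.13 per the authors' deposited table. SMURF1, the ubiquitin ligase that SMAD7 can bring to the receptors, had a start codon peak at -1.76 per the authors' deposited table (adjusted p = 0.0298), which spans 62516 bases. The 3'UTR and stop codon peaks of SMURF1 were at -0.28 and -0.44 per the authors' deposited table. In the input, ID1, a target of bone morphogenetic protein signalling, had 31.1 against 24.9 FPKM and USP15, a deubiquitinase, had 4.15 against 3.46. GDF11 had 2.55 against 3.14 FPKM and SMAD3 had 22.6 against 26.5, and none of these reached 2-fold.

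**Figure D5:**
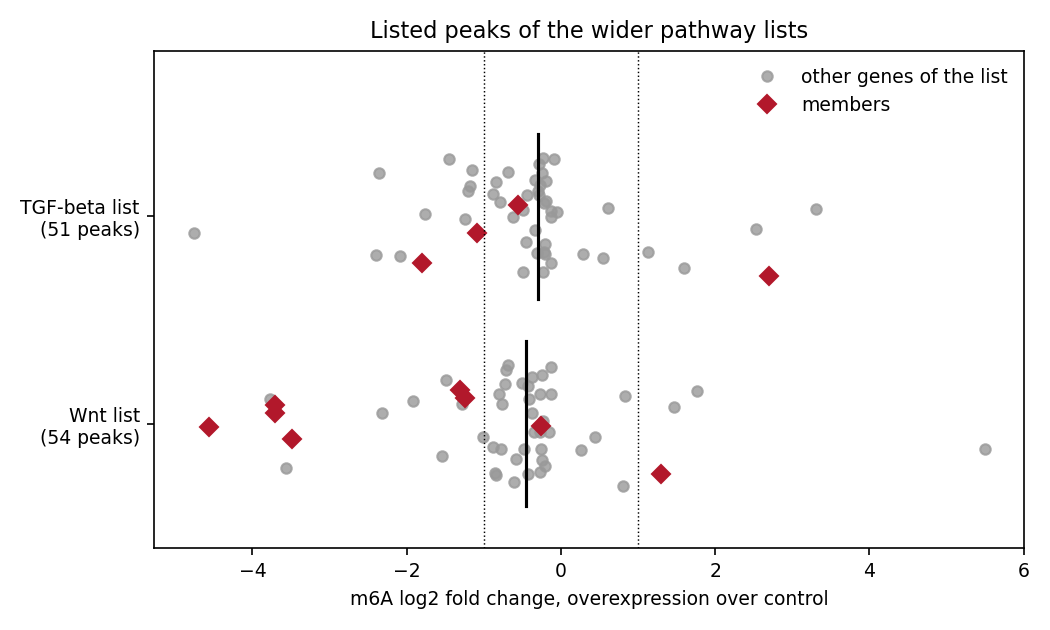
Each point is 1 listed peak of the wider Wnt list (54 peaks) or TGF-beta list (51 peaks), with its m6A log2 fold change on the x axis and a random vertical offset within its list. Diamonds are the peaks of the 7 members, black lines are the medians of -0.45 and -0.29, and dotted lines mark 2-fold. Most grey points lie between the dotted lines, and the members include the lowest Wnt value, -4.57 for GSK3B.

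Some of the 7 genes also share other features in the table. WNT5A, DVL3, GSK3B and TGFBR2 lie on chromosome 3, which holds 5.80% of the listed genes, at places far apart along it. All 7 had an input level of over 1 FPKM in both arms, as did 81.3% of the 6546 genes with a level. The authors' deposited table annotates WNT5A, DVL3, GSK3B, TGFBR2 and SMAD7, or 5 of the 7, to Hippo signalling, a pathway that controls organ size. Over the table it does so for 59 of 6763 genes (0.872%). Annotated pathways share genes and the members were chosen by pathway, so the 5 of 7 is not independent of that choice.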

How the data were processed

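MeRIP-seq of BEAS-2B cells gave 1 input and 1 immunoprecipitated library per arm. The submitters' processing notes name fastp 0.19.4 for the reads and hg38 as the build. For the aligner, peak caller, expression program and annotation version, nothing is given in the sources used here. The authors deposited, per peak, a log2 fold change of m6A (overexpression over control), with its p-value and adjusted p-value, and the length in bases, another deposited value that counts introns. Per gene they deposited FPKM of both inputs, a fold change (the ratio of the FPKM) with its log2, and a p-value and q-value. Depth is unknown.

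Symbols selected the peaks. Differential means a log2 fold change of 1 or more in size with p below 0.05. Input changes used log2(FPKM + 1). Distances used RefSeq gene spans (GRCh38.p14, the same assembly as hg38). Counting steps were tested on simulated data, with pandas 2.3.3. Conditions were not tested against each other, since each group held 1 library. The members and lists were chosen with earlier results of these data known.

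The rule for named genes took every member and every peak of it. From the wider lists it took up to 5 genes per direction by differential peak and up to 3 by input change, at 1 FPKM or more in both inputs. Alternatives were the centring of fold changes, the call threshold, the pseudocount, the filter on low FPKM and, added after seeing the data, the table's own pathway annotation. Peak sequences and motifs were not analysed here.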

Additional observations from a re-analysis of the deposited data

How the results depend on the processing

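Centring the m6A log2 fold changes on the median of all listed peaks, of the same region label or of the same input level turned the sign of WNT5A to 0.12, 0.021 and 0.14, while the other 11 peaks kept theirs. Under each of these settings 3 peaks fell under 2-fold, among the 3'UTR peaks of SMAD7 and LRP6, the GSK3B stop codon peak and the TGFBR2 peak. Input changes of the 7 genes kept their sign under every pseudocount and after centring. With an adjusted p below 0.05 also required, 0 Wnt member peaks remained (0 higher, 0 lower), and 1 TGF-beta member peak (0 higher, 1 lower). On the wider lists the same requirement left 3 of 54 Wnt peaks (0 higher, 3 lower). It left 2 of 51 TGF-beta peaks (0 higher, 2 lower), beside 7.84% of all listed peaks. After centring on all peaks, 1 lower TGF-beta member peak and 7 lower peaks of the wider TGF-beta list passed 2-fold. At 1.5-fold the wider Wnt list had 30 differential peaks of 54, 24 of them lower. Shares over all listed peaks after centring or at 1.5-fold are not given here, so these counts have no background beside them. With the table's own annotation, chosen after seeing the data, 32 of 70 Wnt peaks were differential (45.7%, 10 higher and 22 lower) and 28 of 56 TGF-beta peaks (50.0%, 22 lower). Both shares, with the annotated members included, lie above the 43.7% over all listed peaks, whereas the wider lists, at 33.3% each, lie below it. The annotation to TGF-beta signalling includes TGFBR2 and SMAD7 but not ZEB2. Without the members the annotated Wnt share was 40.3%, below 43.7%, and the annotated TGF-beta share was 49.1%. The wider lists without the members were at 23.9% (Wnt) and 29.8% (TGF-beta). The cause of these differences was not tested beyond what each setting changes by construction. No paired analysis was possible because each group held 1 library. Depth is unknown, so the reads behind a short peak could not be weighed.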

Other observations

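Some relatives and partners of the members were chosen after their values were seen. GSK3A, the paralog of GSK3B, had 3 peaks at -0.78, -0.88 and -0.24, and LRP5, the paralog of LRP6, had an exonic peak at -0.61 per the authors' deposited table. CTNNB1, which encodes beta-catenin, had a stop codon peak at -0.15 per the authors' deposited table and 28.1 against 27.5 FPKM. DVL1, DVL2, TGFBR1 and ZEB1 had no line in the table and were not analysed here. SMAD4, the partner of all receptor-activated SMADs, had a 3'UTR peak at -1.20, and SMAD6, the other inhibitory SMAD, a start codon peak at -0.88 per the authors' deposited table. BMPR2, a type II receptor like TGFBR2, had a 3'UTR peak of 101 bases at -1.18 per the authors' deposited table.

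Of the wider lists, 5 differential peaks had an adjusted p below 0.05 per the authors' deposited table. Besides SMAD7 and SMURF1 they were those of CTNNBIP1, an inhibitor of beta-catenin binding, at -2.32, VANGL1, a planar polarity protein gene, at -1.49, and WLS, which carries Wnt proteins to the cell surface, at -1.02. All 5 were lower. Input of CTNNBIP1 was only 0.62 and 0.41 FPKM. At such low levels stood also the largest value of either list, 5.50 at a 3'UTR peak of the receptor gene FZD3 with 0.45 and 0.57 FPKM, and the WNT9A peaks at -3.56 and -3.78 with 0.14 FPKM in both inputs, all from the authors' deposited table.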
